A study of Mus musculus with 17 samples.

Results

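The comparison described here set Acss2 knockout (KO) against wild-type (WT) male mice that had both received AD tau, and it rested on 6 of the 17 libraries of the series: KO Tau replicates 711, 712 and 713 and WT Tau replicates 771, 772 and 773. The libraries were chosen by their labels alone (male, Tau, genotype), and 15098 of the 24498 genes in the count table had enough counts to be tested. The knockout was constitutive, so every cell type lacked the gene throughout life, and the mice came from homozygous crosses of the progeny of heterozygotes. AD tau is insoluble tau taken from human Alzheimer's disease brain, and both groups carried it, injected into the dorsal hippocampus at 6 months of age. The tissue was dissected dorsal hippocampus, from which polyadenylated RNA was sequenced. The labels number the libraries without stating that each came from a separate mouse, so p-values measure the spread between these libraries. For contrast, 6 male libraries from mice injected with PBS (KO PBS 751, 752 and 753, and WT PBS 791, 792 and 793) and 5 female Tau libraries (KO 314, 324 and 325, and WT 331 and 341) were used. Wherever 6 values are listed, the order is KO Tau 711, 712 and 713, then WT Tau 771, 772 and 773.

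Acss2 encodes acetyl-CoA synthetase, which joins acetate to coenzyme A. In neurons a nuclear pool of the enzyme supplies acetyl-CoA to histone acetyltransferases at activity-dependent and memory-related genes. Tau is a microtubule-binding protein of axons, and aggregated tau taken up by a neuron can template the misfolding of tau already there. Neuronal activity switches on immediate early genes, many of them transcription factors, and these in turn switch on late effector genes such as growth factors and synaptic proteins.

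The 6 libraries held 15853495 to 21254509 gene counts, so 3 counts, the smallest amount read as detected, was worth 0.141 to 0.189 CPM, a unit in which every library has been brought to the same total. KO Tau 711 stood apart. Its 50 highest genes took 12.2% of its counts, against 9.57% to 10.0% in the other 5 libraries. Across genes its median absolute log2 gap to the mean of the other libraries of its group was 0.319, against 0.232 in 712, 0.164 in 713 and 0.110 to 0.124 in the WT Tau libraries. List medians are therefore given with it and, from the same fit of the 12 male libraries, without it.

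Acss2 itself was the gene with the smallest p. It stood at 5.74, 3.07 and 4.33 CPM in KO Tau and at 51.7, 52.2 and 44.0 CPM in WT Tau, with means of 4.38 ± 1.33 and 49.3 ± 4.56 (SD, n = 3 each). Every KO library lay far below every WT library, and the genotype labels held in all 6. The log2 fold change, KO minus WT, was −3.47 (SE 0.191), with an adjusted p of 1.41e-05 in edgeR's quasi-likelihood test. The gene (ENSMUSG00000027605.18) lies on chromosome 2 of GRCm38, from 155517948 to 155585724 on the plus strand. Its reads in the KO libraries stayed above the detection floor, and the count table gives 1 value per gene, so the exons they came from were not analysed here.

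No other gene passed the adjusted threshold of 0.05 in edgeR, so 1 of 15098 tested genes was called (0.00662%). Before adjustment, the same test listed 711 genes with p under 0.05, 351 higher in KO Tau (2.32% of those tested) and 360 lower (2.38%). DESeq2's Wald test on the 6 libraries alone called 28 genes, 6 higher (0.04%) and 22 lower (0.147%), and on the 12 male libraries it called 4 (0.02%). The CPM values of KO and WT libraries did not overlap at 582 genes that were higher in KO Tau (3.85% of those tested) and at 1323 that were lower (8.76%). The median log2 fold change over all tested genes was 0.01, and 0.00 without 711. In bulk tissue, fewer cells of a type and less RNA per cell cannot be told apart.

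The activity-regulated phosphatase Dusp5 had the smallest p after Acss2 among genes with a full symbol. DUSP5 inactivates the kinase ERK in the nucleus and is itself induced by ERK signalling. Its levels were 6.12, 6.41 and 9.41 CPM in KO Tau and 16.7, 17.5 and 15.5 CPM in WT Tau. Each KO value was below each WT value, and 711 lay with its group. The log2 fold change was −1.15 (SE 0.197), with an adjusted p of 0.492 in edgeR and 0.000687 in DESeq2 on the 6 libraries.

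Sik1, a kinase that restrains the CREB coactivators of the CRTC family, ran the same way, at 5.74, 9.54 and 7.998 against 14.0, 16.3 and 18.2 CPM (log2 fold change −1.03, SE 0.195, adjusted p 0.838 in edgeR and 0.0116 in DESeq2). Fosl2, which encodes the AP-1 subunit FRA-2, stood at 37.1, 50.9 and 43.4 against 72.5, 72.0 and 71.2 CPM (−0.69, SE 0.156, DESeq2 adjusted p 0.00767). The 3 WT libraries of Fosl2 lay close together. Bdnf, the neurotrophin that promotes synaptic growth and plasticity, stood at 45.2, 37.9 and 43.1 against 68.0, 70.1 and 62.7 CPM (−0.65, SE 0.253, DESeq2 adjusted p 0.00293). Spry4, which is in neither activity-regulated list, is an inhibitor of receptor tyrosine kinase signalling to ERK and stood at 13.6, 14.1 and 13.8 against 22.2, 19.9 and 21.8 CPM (−0.60, SE 0.122, DESeq2 adjusted p 0.0199). The groups did not overlap at any of these 5 genes, and none of the 5 passed the adjusted threshold in edgeR.

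**Figure D1:**
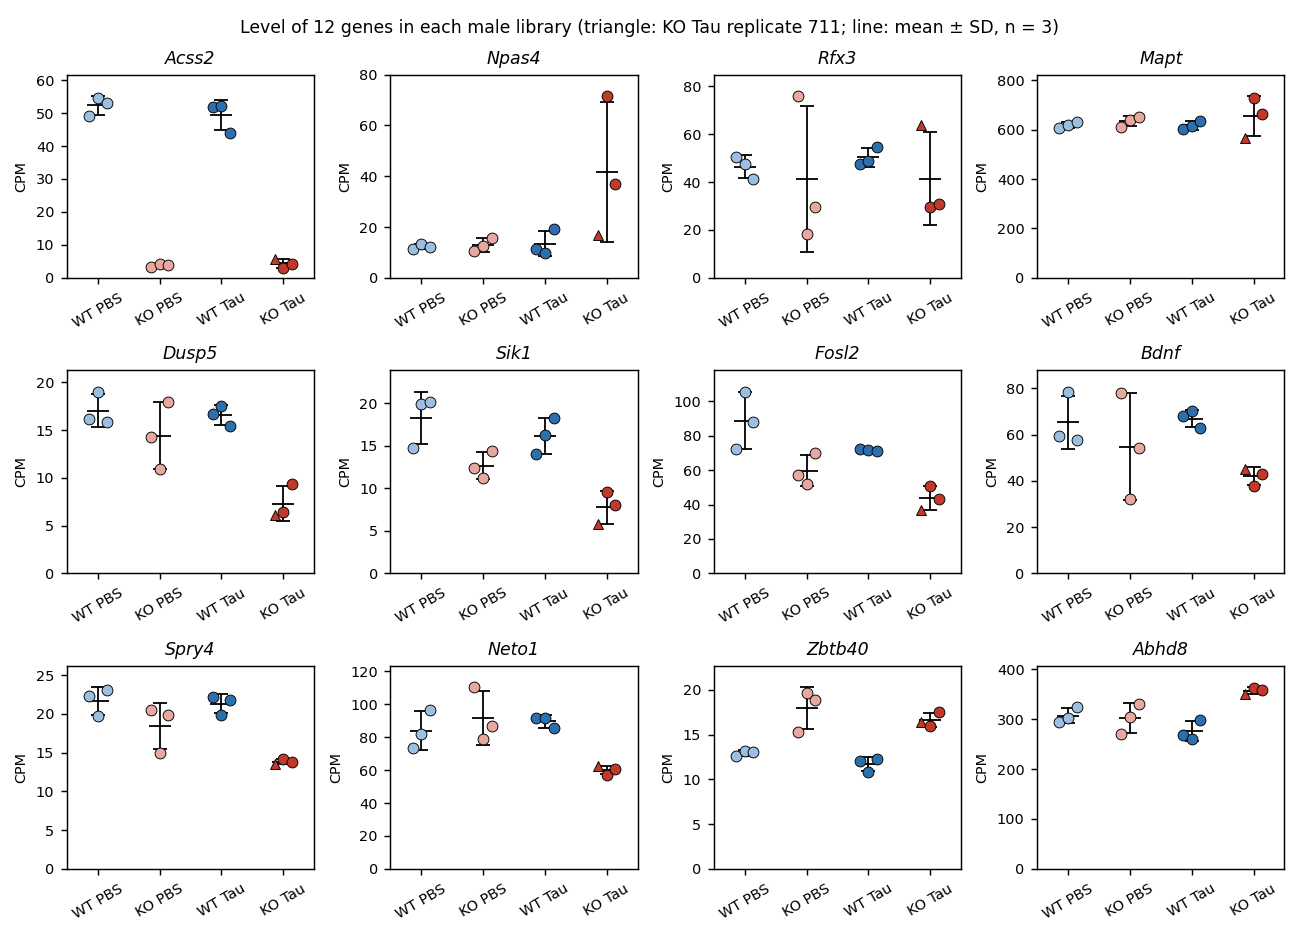
Level of 12 genes in CPM (vertical axis) in each male library of the 4 groups, with 711 as a triangle and the mean ± SD (n = 3) of each group. Acss2 falls to single figures in every KO library, Dusp5, Sik1, Fosl2 and Bdnf lie lower in all 3 KO Tau libraries than in WT Tau, and Npas4 spreads from 16.8 to 71.4 CPM within KO Tau.

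Promoter sequence is shown for 3 activity-regulated genes, Dusp5 and Fosl2 as members that were lower and Npas4 as a member that was higher. It is given because CREB and the serum response factor are the textbook inducers of this class. The windows run from 250 bases before to 50 bases after the annotated start, from RefSeq on GRCm38.p6, and read 5′ to 3′ on the gene's strand: chr19:53528895-53529194 (plus) for Dusp5, chr5:32136222-32136521 (plus) for Fosl2 and chr19:4989922-4990221 (minus) for Npas4. Capitals mark TGACG on either strand, the core of the CREB binding element, and CArG boxes, the element of the serum response factor.
Dusp5: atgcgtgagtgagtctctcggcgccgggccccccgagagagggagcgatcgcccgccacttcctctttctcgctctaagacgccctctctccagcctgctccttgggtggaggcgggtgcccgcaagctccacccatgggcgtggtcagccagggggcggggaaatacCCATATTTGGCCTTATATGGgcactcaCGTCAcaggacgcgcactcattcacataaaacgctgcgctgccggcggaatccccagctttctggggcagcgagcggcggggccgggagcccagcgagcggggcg
Fosl2: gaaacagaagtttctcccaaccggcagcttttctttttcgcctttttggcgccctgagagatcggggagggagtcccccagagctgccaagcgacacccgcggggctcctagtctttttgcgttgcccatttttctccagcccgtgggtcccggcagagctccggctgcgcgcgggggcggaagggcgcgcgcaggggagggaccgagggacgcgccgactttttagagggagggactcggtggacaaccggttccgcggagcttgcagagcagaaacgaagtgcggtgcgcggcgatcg
Npas4: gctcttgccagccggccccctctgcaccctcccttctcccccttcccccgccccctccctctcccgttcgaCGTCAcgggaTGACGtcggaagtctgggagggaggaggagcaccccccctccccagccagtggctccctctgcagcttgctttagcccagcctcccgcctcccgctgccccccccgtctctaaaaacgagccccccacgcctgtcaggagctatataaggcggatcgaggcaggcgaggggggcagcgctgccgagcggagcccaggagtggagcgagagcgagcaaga
The Dusp5 window held 1 TGACG core and 2 CArG boxes that abut each other, Npas4 held 2 cores and no CArG box, and Fosl2 held neither. TGACG stood in 26 of 38 windows (68.4%) of 27 immediate early genes and in 8 of 21 windows (38.1%) of 14 late genes, and in 20.8% of all 32851 windows. A CArG box stood in 5 of the 38 (13.2%), in 0 of the 21, and in 1.63% of all windows. A match describes letters in the window and not occupancy by a factor.

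Among 33 tested immediate early genes 13 were higher and 20 lower in KO Tau, with a median log2 fold change of −0.14. At 8 of them all KO libraries lay below all WT libraries, at 0 above (background 8.76% and 3.85%). Besides Dusp5, Sik1 and Fosl2, and chosen after their values were seen, these included Nr4a1, an orphan nuclear receptor, at 59.2, 106 and 85.9 against 121, 133 and 156 CPM (−0.69). The lower genes were not joined by the best known members. Fos, chosen likewise, stood at 9.27, 82.1 and 32.6 against 30.1, 31.5 and 45.6 CPM. Egr1, a zinc finger transcription factor, stood at 125, 383 and 326 against 239, 236 and 329 CPM. Arc, which drives internalization of AMPA receptors, stood at 150.4, 342 and 228 against 228, 262 and 283 CPM. At all 3 genes 711 lay below every WT Tau library and 712 above every one, so the groups overlapped. Without 711 the median of the list was 0.11, of the opposite sign. In the other libraries it was −0.08 after PBS (13 of 33 higher in KO) and 0.20 in females (27 of 33 higher).

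Among 20 late activity-regulated genes 5 were higher and 15 lower, with a median of −0.17 (−0.14 without 711), and at 6 all KO libraries lay below WT, against 1 above (background 8.76% and 3.85%). They included Bdnf, Gpr3, a receptor that raises cyclic AMP without a ligand (3.41, 5.63 and 5.36 against 8.23, 7.56 and 7.38 CPM), and Scg2, a granin of dense-core vesicles (182, 218 and 225 against 248, 286 and 233 CPM). Rgs4, which ends G protein signalling, stood at 112, 424 and 399.7 against 239, 209 and 279 CPM. Its value in 711 lay below all WT libraries, and its values in the other KO libraries lay above all of them. The parts of library and genotype in the Rgs4 values were not tested. Leaving out any of the 6 libraries left the median of this list between −0.26 and −0.14. In the other libraries it was 0.11 after PBS (11 of 20 higher in KO) and 0.02 in females (10 of 20 higher).

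**Figure D2:**
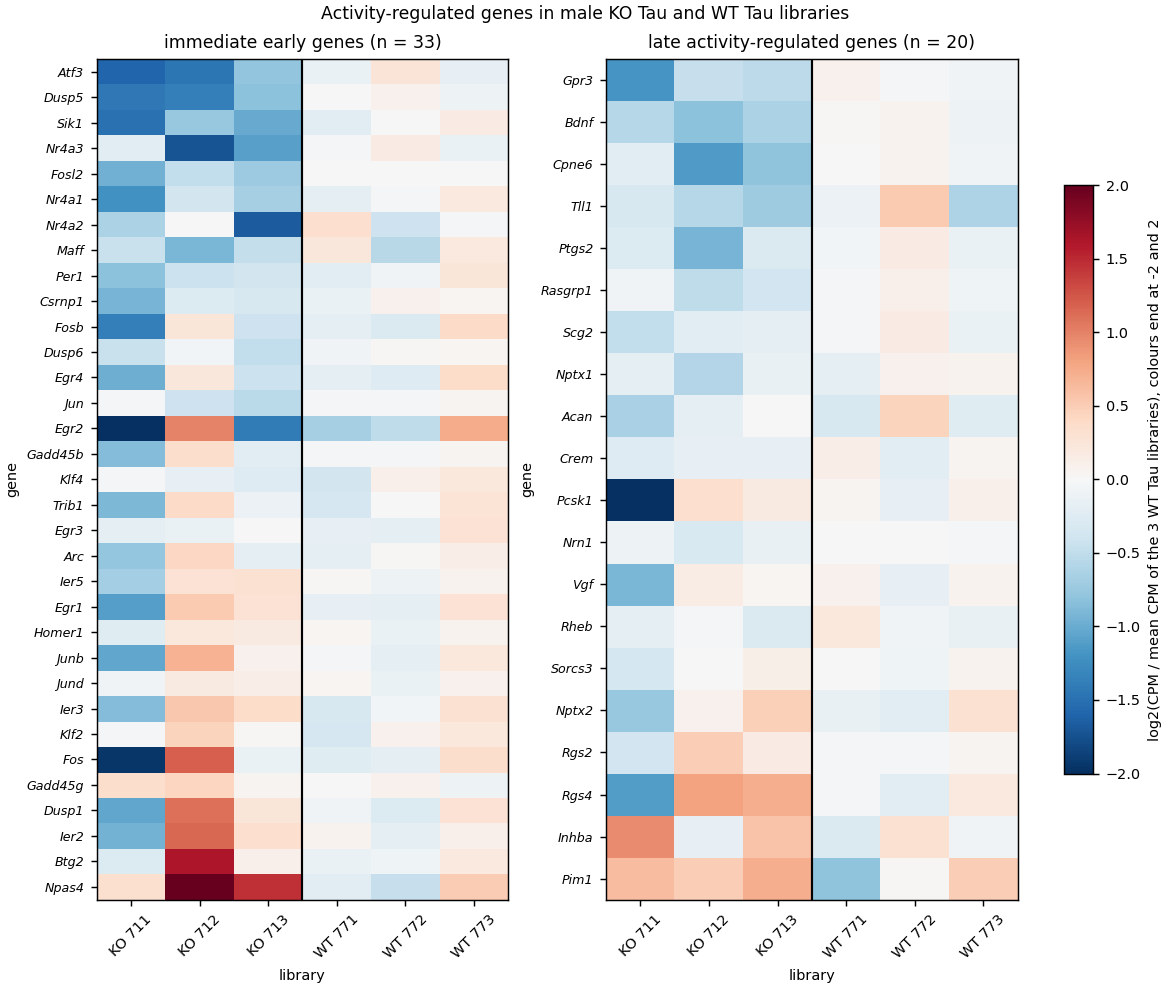
Heat map of 33 immediate early and 20 late activity-regulated genes (rows) in the 6 male Tau libraries (columns), coloured by the log2 ratio of CPM to the WT Tau mean, with colours ending at −2 and 2. Dusp5, Sik1 and Fosl2 are low in all 3 KO Tau columns, whereas Fos, Egr1 and Arc are low in 711 and high in 712.

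Npas4 encodes a neuronal transcription factor that calcium influx induces and that adjusts inhibitory synapses. It stood at 16.8, 71.4 and 37.0 CPM in KO Tau and at 11.4, 9.75 and 19.04 CPM in WT Tau (41.8 ± 27.6 and 13.4 ± 4.96, SD, n = 3 each). The groups overlapped, because 711 lay below WT Tau 773. The log2 fold change was 1.65 (SE 0.419), with an adjusted p of 0.927 in edgeR. Without 711 it was 2.03 (SE 0.525), and Npas4 rose in DESeq2 on the 5 remaining libraries, with an adjusted p of 0.00316. It was the immediate early gene with the smallest p among the 13 that were higher.

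Outside the activity-regulated lists, other genes kept every KO Tau library below every WT Tau library. Ccl28, an epithelial chemokine, stood at 3.22, 2.61 and 2.59 against 6.32, 5.53 and 5.71 CPM (log2 fold change −1.04, SE 0.25, DESeq2 adjusted p 0.0199). Neto1, an auxiliary subunit of kainate receptors, stood at 62.4, 57.1 and 60.7 against 91.7, 91.5 and 85.3 CPM (−0.55, SE 0.137, DESeq2 adjusted p 0.00158). Tnfaip3, which encodes the NF-κB inhibitor A20, stood at 5.11, 6.83 and 6.87 against 10.8, 10.1 and 10.7 CPM. At all 3 genes 711 lay with the other KO libraries. Nedd9, an integrin signalling scaffold (7.13, 8.65 and 8.52 against 13.001, 15.2 and 12.3 CPM), the orphan receptor gene Gpr12 (17.2, 17.4 and 18.4 against 23.9, 23.0 and 21.95 CPM), the zinc finger gene Zfp948 (7.63, 9.28 and 7.48 against 11.9, 12.3 and 12.7 CPM) and Actn2 completed the leading 12 with lower values. None of them passed the adjusted threshold in edgeR.

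Of the genes that were higher in all 3 KO Tau libraries, the 12 with the smallest p are named here. The zinc finger gene Zbtb40 stood at 16.4, 16.0 and 17.6 against 12.1, 10.8 and 12.2 CPM (log2 fold change 0.53, SE 0.109, adjusted p 0.899 in edgeR). Avp, the vasopressin precursor, stood at 2.40, 2.40 and 2.96 against 0.954, 1.04 and 0.443 CPM (1.70, SE 0.36, DESeq2 adjusted p 0.0351). Abhd8, a predicted hydrolase, stood at 349.9, 363 and 358 against 269, 261 and 298 CPM (0.39, SE 0.092), and Ddrgk1, of the endoplasmic reticulum UFMylation machinery, at 81.6, 85.3 and 86.4 against 62.2, 70.1 and 67.9 CPM (0.36, SE 0.0811). Avp and Ddrgk1 lie on chromosome 2, as Acss2 does, with starts at 130580620 and 130653960. Gpx1, the peroxide-reducing glutathione peroxidase, stood at 58.0, 58.4 and 60.6 against 44.2, 43.8 and 48.8 CPM, and Stk11, which encodes the AMPK-activating kinase LKB1, at 97.3, 92.7 and 99.0 against 80.9, 82.2 and 82.8 CPM. Banp, Btbd17, Fam213b, Trappc6a, Taf3 and B4galt2 made up the other leading genes, each separate in all 6 libraries, and 0 of the 12 passed the adjusted threshold in edgeR.

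The list of acetyl-CoA supply holds Acss2 and kinases that shut down pyruvate dehydrogenase, beside enzymes that could supply acetyl-CoA in place of ACSS2. Its counts therefore do not show whether the supplying enzymes moved together. Of 21 tested genes, Acss2 included, 10 were higher and 11 lower, with a median of −0.02 (−0.04 without 711), and 2 separated the groups on the low side, the deleted gene and Pdk3 (background 8.76%). Pdk3, a kinase that shuts down pyruvate dehydrogenase, stood at 31.8, 29.7 and 28.5 against 35.6, 34.7 and 32.7 CPM, and Dlat, the acetyl-transferring subunit of that complex, at 126, 134 and 125 against 154, 146 and 133 CPM (log2 fold change −0.15, SE 0.0843). Without 711 the activating phosphatase Pdp1 (63.4, 138 and 146 against 79.2, 81.6 and 100.3 CPM) and the kinase Pdk1 (57.8, 90.3 and 86.0 against 68.2, 66.2 and 73.2 CPM) rose in DESeq2, with adjusted p-values of 1.81e-06 and 0.00578. At both genes 711 lay below every WT library.

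Sterol synthesis, which builds cholesterol from acetyl-CoA, leaned downward: 17 of 23 genes were lower and 6 higher, with a median of −0.22, and 8 separated the groups on the low side against 1 on the high side (background 8.76% and 3.85%). Cyp51, the sterol demethylase, stood at 62.8, 76.2 and 68.6 against 89.4, 83.7 and 79.1 CPM (log2 fold change −0.26, SE 0.0873). The groups did not overlap, and 711 was the lowest library. Without 711 the median of the list was −0.05, with 1 gene lower and 1 higher in DESeq2 (background 4.99% and 4.26%). In the PBS libraries 4 of the 23 genes were higher in KO (median −0.09), and in the female Tau libraries 1 was higher (median −0.26). For fatty acid synthesis 12 of 20 genes were higher and 8 lower, with a median of 0.04, and without 711 6 of 20 were higher, with a median of −0.07.

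For lactate and glucose handling 10 of 17 genes were higher and 7 lower, with a median of 0.02. The groups separated at 0 of them (background 8.76% on the low side and 3.85% on the high side). Without 711 13 of 17 were higher, with a median of 0.17. Without 711 Ldhb, the lactate dehydrogenase subunit of oxidative cells, rose from a WT mean of 414 CPM (419, 553 and 545 against 423, 406 and 411 CPM, DESeq2 adjusted p 2.23e-07). Slc16a1, the monocarboxylate transporter MCT1, fell (47.1, 34.6 and 37.2 against 53.9, 54.2 and 44.7 CPM, DESeq2 adjusted p 0.00415). At both genes 711 lay within the WT range.

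The enzymes that place and remove histone acetyl groups showed small differences in both directions. Of 16 acetyltransferases 8 were higher and 8 lower, between −0.14 and 0.16 on the log2 scale. Their median was −0.01 (−0.02 without 711), and 1 separated the groups on the low side (background 8.76%). Of 18 deacetylases 12 were higher and 6 lower, between −0.34 and 0.25. Their median was 0.07 (0.02 without 711), and 1 separated the groups on the high side (background 3.85%). Hdac4 stood at 48.1, 53.6 and 58.7 against 46.0, 42.4 and 48.9 CPM and Hdac9, of the same signal-responsive class, at 35.3, 49.98 and 37.1 against 56.4, 49.4 and 51.0 CPM. In both cases the groups overlapped through 1 library. Transcript levels do not measure acetylation.

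Tau itself was similar in KO and WT: Mapt stood at 567, 729 and 665 against 602, 614 and 637 CPM (log2 fold change 0.10, SE 0.0966). Counts of mouse Mapt do not measure the injected human protein. Of 27 genes for tau, other microtubule proteins and tau kinases 14 were higher and 13 lower, with a median of 0.01 with or without 711. The groups separated at 0 of them (background 8.76% on the low side and 3.85% on the high side). Without 711 Csnk1e, casein kinase 1 epsilon (94.1, 141 and 133 against 101, 97.4 and 111 CPM), and Stmn1, the microtubule destabilizer stathmin (120.3, 345 and 257 against 186, 155 and 176 CPM), rose in DESeq2, with adjusted p-values of 0.000922 and 8.98e-07. At both genes 711 was the lowest of the 6 libraries. For App and the secretases 6 of 15 genes were higher and 9 lower, with a median of −0.01 (0.06 without 711, with 10 of 15 higher).

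Rfx3 encodes a transcription factor of the RFX family, best known for cilia genes. It stood at 63.8, 29.7 and 30.8 against 47.5, 48.8 and 54.8 CPM, so that 712 and 713 lay below every WT library and 711 above (log2 fold change −0.26, SE 0.439, adjusted p 0.961 in edgeR). Without 711 it fell by 0.72 on the log2 scale (DESeq2 adjusted p 4.34e-07). The mean log2 level of 21 dentate granule cell markers, a list that holds Rfx3 itself, ran in the same order in KO Tau, 5.55, 4.37 and 4.80, against 5.16, 5.33 and 5.33 in WT Tau. The KO PBS libraries also spread widely, with Rfx3 at 75.8, 18.2 and 29.7 CPM and the dentate markers at 5.85, 3.92 and 4.75. The part of the dentate share in the Rfx3 values was not tested. Of 9 tested RFX genes 2 were higher and 7 lower, with a median of −0.11 (−0.09 without 711). The groups separated at 0 of them (background 8.76% on the low side and 3.85% on the high side).

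Without 711 the number of calls rose to 1377 in DESeq2 on the 2 groups, 634 higher (4.26% of 14887 tested) and 743 lower (4.99%), and to 733 in edgeR on the 2 groups, 355 higher (2.36% of 15011) and 378 lower (2.52%). The tools shared 725 genes, 52.7% of the DESeq2 calls and 98.9% of the edgeR calls. The fit of edgeR on the 12 male libraries still called 1 gene without 711. These larger counts describe 712 and 713 against WT Tau. On simulated counts, with 100 genes changed by 1 log2 unit and 100 by 2, DESeq2 without 711 recovered 86 and 99 of them. It also made 63 false calls, against 9 in edgeR on 12 libraries, so its adjusted p-values did not hold their level there. The simulated spread came from all 12 male libraries, 711 included, and the 2 fits differed in both tool and libraries. The simulation therefore does not give the share of false calls among the 1377.

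The leading genes that rose without 711 included Ddit4l, an inhibitor of mTORC1, at 12.1, 41.8 and 39.3 against 19.8, 19.7 and 18.2 CPM. Igfbp6, whose product binds an insulin-like growth factor, stood at 5.93, 51.7 and 61.2 against 15.1, 20.1 and 22.8 CPM. Adra1b, an adrenergic receptor gene, stood at 4.48, 21.3 and 23.1 against 6.80, 7.62 and 9.79 CPM. In all 3 the values of 712 and 713 were above every WT library and that of 711 was below every one. Incenp, Pdzrn3, Rassf3 and Osbpl1a had the same order. Cabp1 and Stard10 had 711 inside or beside the WT range, and Pou3f2, a transcription factor of upper cortical layers, was higher in all 3 KO libraries (16.5, 28.9 and 33.1 against 15.7, 15.2 and 16.2 CPM).

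The leading genes that fell without 711 included C1ql2, a synaptic organizer of mossy fibres, at 118, 25.7 and 37.5 against 88.4, 105 and 94.0 CPM. Ndst4, a heparan sulfate enzyme, stood at 25.6, 5.11 and 5.22 against 18.2, 23.6 and 15.5 CPM. Gabra5, a GABA-A receptor subunit of hippocampal pyramidal cells, stood at 178, 74.6 and 92.9 against 201, 202 and 158 CPM. For each, 711 was inside or above the WT range. Kctd4, a potassium channel tetramerization domain gene (60.8, 33.1 and 28.9 against 78.5, 73.4 and 66.6 CPM), Cpne7 (108, 73.2 and 68.8 against 191, 156 and 153 CPM) and Cpne6 (409, 218 and 273 against 473, 501 and 455 CPM), which encode copines, calcium-dependent membrane-binding proteins, had 711 on the low side as well. Nr4a3, an immediate early nuclear receptor, stood at 104.9, 36.8 and 57.3 against 119, 136 and 111 CPM and was among the 10 leading genes.

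Marker genes of hippocampal neurons and of neighbouring cortex moved with these results. Without 711, 16 of 18 neocortex markers were higher, with a median of 0.66 (0.39 with 711), and 8 rose in DESeq2 with 0 falling (background 4.26% and 4.99%). Lamp5, of upper cortical layers, stood at 32.3, 179 and 229 against 54.8, 51.6 and 96.7 CPM. Rspo1, which enhances Wnt signalling, stood at 1.26, 10.0 and 16.9 against 1.13, 2.14 and 3.30 CPM. The mean log2 levels of the whole list were 3.96, 5.69 and 5.46 against 4.73, 4.64 and 5.08, so 711 held the lowest value and 712 and 713 the highest. In the other libraries the median of the list was 0.03 after PBS (10 of 18 higher in KO) and −0.16 in females (7 higher).

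Markers of the hippocampal fields ran the other way. Of 21 dentate granule cell markers 18 were lower (median −0.09, −0.66 without 711), of 13 CA1 markers 10 (−0.36, −0.71 without 711), of 10 CA2 markers 8 (−0.54 and −0.69) and of 10 CA3 markers 9 (−0.41 and −0.56). Without 711, DESeq2 placed 9, 7, 5 and 5 of these among the genes that fell (background 4.99%), and 1, 1, 1 and 0 among those that rose (4.26%). Prox1, which specifies granule cells, stood at 51.5, 9.59 and 15.1 against 32.4, 42.6 and 35.5 CPM, and Man1a, listed for CA1, at 61.8, 32.7 and 34.4 against 76.2, 81.6 and 59.6 CPM. After PBS the medians of the dentate, CA1, CA2 and CA3 lists were 0.01, −0.14, 0.20 and 0.18. In females they were −0.17, 0.37, −0.08 and 0.09. C1ql2 is itself on the dentate list, and the part of tissue composition in the calls was not tested.

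Among the 6 Tau libraries compared, choroid plexus markers stood out in 713. All 19 were higher, with a median of 1.70 (2.07 without 711). Yet the mean log2 level of the list was 1.73, 0.688 and 4.81 against 1.08, 2.77 and 0.434, and without 713 the median was −0.42. In the other libraries the median was 0.89 after PBS (19 of 19 higher in KO) and 1.07 in females (17 higher). Tmem72, of the choroid epithelium, stood at 1.07, 0.104 and 11.5 against 0.239, 1.26 and 0.0984 CPM, and Col8a1 at 1.83, 4.38 and 19.8 against 1.49, 3.67 and 1.67 CPM. Ependymal markers were lower at 10 of 13 genes (median −0.53, −0.47 without 711) and separated the groups on the low side at 5 (background 8.76%). These included Ccdc153 (2.71, 1.88 and 2.54 against 6.02, 6.41 and 4.48 CPM) and Tmem212 (0.694, 0.417 and 0.941 against 2.68, 3.23 and 1.97 CPM), both genes of motile cilia. After PBS the ependymal markers ran the other way, with 13 of 13 higher in KO (median 0.75). In females 4 were higher (median −0.17).

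Glial markers differed by type. Oligodendrocyte markers were lower at 18 of 20 genes (median −0.20, −0.38 without 711). After PBS 20 of 20 were higher in KO (median 0.40), and in females 0 were higher (median −0.45). Astrocyte markers were higher at 15 of 18 (median 0.23, −0.06 without 711), with Aldh1l1 at 91.3, 81.5 and 91.7 against 59.0, 64.3 and 65.9 CPM and the groups separate. Homeostatic microglia markers were higher at 14 of 16 (median 0.11, −0.06 without 711). Inhibitory neuron markers were lower at 15 of 21 (median −0.10, 0.03 without 711). Endothelial markers were higher at 14 of 17 (median 0.09, −0.10 without 711), oligodendrocyte precursor markers at 8 of 14 (0.02, −0.16 without 711) and meningeal and mural markers at 9 of 18 (−0.03, −0.02 without 711). Striatal markers were higher at 10 of 15 (0.16, 0.26 without 711) and thalamic markers at 11 of 20 (0.05, −0.20 without 711), whereas Cajal-Retzius markers were lower at 6 of 8 (−0.21, −0.26 without 711). Of 8 blood genes 2 could be tested, and both were higher.

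**Figure D3:**
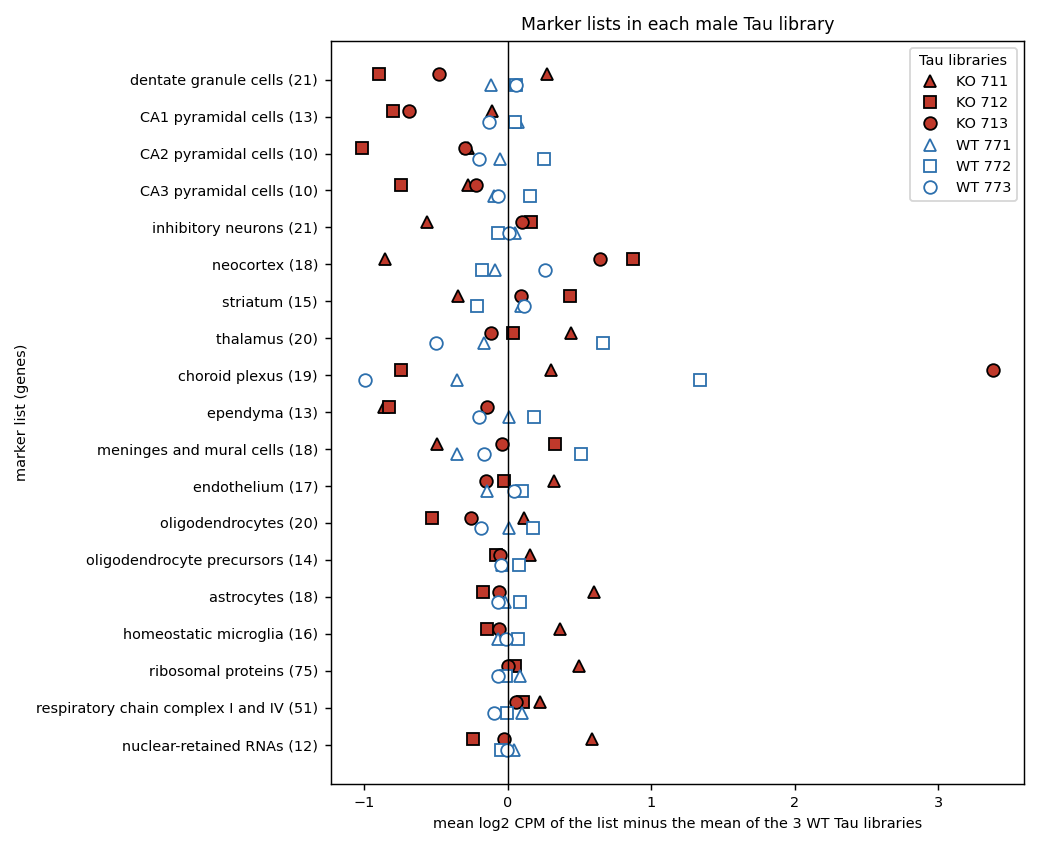
Mean log2 CPM of 16 cell type marker lists and 3 lists on RNA make-up in each of the 6 male Tau libraries (points), less the WT Tau mean of the list (horizontal axis). For neocortex, 711 lies below WT and 712 and 713 above it, for dentate granule cells the order is the reverse, and for choroid plexus 713 lies far to the right of the other 5 libraries.

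Genes read as signs of RNA make-up were mostly higher in KO Tau with 711 included, and nuclear-retained RNAs were mostly lower without it. Ribosomal protein genes were higher at 73 of 75 (median 0.24, 0.05 without 711), with 13 separating the groups on the high side (background 3.85%). Their mean log2 level was highest in 711. Respiratory chain genes of complexes I and IV were higher at 46 of 51 (median 0.15, 0.08 without 711), with Ndufa13 at 186, 162 and 152 against 142, 135 and 126 CPM. Nuclear-retained RNAs were higher at 9 of 12 (median 0.23) and at 3 of 12 without 711 (−0.15), with Kcnq1ot1 at 18.4, 12.8 and 13.9 against 10.5, 8.77 and 9.64 CPM.

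Neuronal surface genes showed both directions. Among semaphorins, plexins and neuropilins 15 of 31 were higher (median −0.00068, −0.01 without 711), and 4 separated the groups on the low side, against 0 on the high side (background 8.76% and 3.85%). Nrp1, a semaphorin and VEGF receptor, stood at 76.2, 51.3 and 59.1 against 99.5, 109 and 79.7 CPM, and Nrp2 at 40.0, 23.2 and 27.5 against 45.7, 54.0 and 42.2 CPM. Among netrins, slits and their receptors 13 of 21 were lower (median −0.05, −0.08 without 711), and 5 separated the groups on the low side against 1 on the high side (background 8.76% and 3.85%), with the netrin receptor gene Unc5c at 38.9, 36.1 and 35.7 against 56.5, 62.8 and 49.0 CPM. Efna5, an ephrin ligand of axon guidance, was high in 712 and 713 alone (3.72, 45.6 and 42.1 against 13.1, 10.3 and 19.9 CPM). Ntm, the adhesion molecule neurotrimin, was higher in all 3 KO libraries (139.1, 207 and 191 against 126, 124 and 138.8 CPM), though 16 of 22 genes of its adhesion list were lower (median −0.07), against 11 of 22 without 711 (0.05). Ephrins and Eph receptors were lower at 12 of 22 (−0.04, 0.0025 without 711).

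Of 18 AMPA, NMDA and kainate receptor genes 13 were lower (median −0.08, −0.0045 without 711), with the AMPA receptor subunit Gria1 at 1143, 500.3 and 680.1 against 1068, 1238 and 989 CPM and the kainate receptor subunit Grik4 at 43.2, 29.8 and 38.2 against 49.9, 58.7 and 56.1 CPM. Gria1 was low in 712 and 713 and not in 711, whereas Grik4 was low in all 3. Of 13 GABA-A receptor genes 10 were lower (median −0.11, −0.07 without 711). Of 7 metabotropic glutamate receptor genes 4 were higher (median 0.01, 0.09 without 711). Gabrd, the extrasynaptic delta subunit, was high in 712 and 713 (33.1, 67.3 and 73.3 against 30.4, 33.6 and 44.98 CPM).

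Of 62 potassium channel genes 34 were higher (median 0.06, 0.11 without 711), and 7 separated the groups on the low side, against 1 on the high side (background 8.76% and 3.85%). Without 711, DESeq2 placed 17 of them among the genes that rose and 5 among those that fell (background 4.26% and 4.99%). The inward rectifier Kcnj2 stood at 14.8, 18.9 and 14.9 against 11.6, 12.1 and 10.5 CPM. Of 36 sodium, calcium and HCN channel genes 22 were lower (median −0.06, −0.03 without 711), with the calcium channel subunit Cacnb2 at 52.7, 43.8 and 46.7 against 64.5, 66.4 and 59.9 CPM. Of 34 vesicle release genes 20 were higher (median 0.03, 0.16 without 711), led by Stx1a, the syntaxin of the plasma membrane (86.4, 368 and 339.6 against 144, 118 and 226 CPM). Of 24 postsynaptic scaffold genes 16 were higher (median 0.07), against 6 without 711 (−0.08), with Dlgap3 at 542, 383 and 442 against 321, 322 and 401 CPM.

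Glial reaction and stress lists had medians of both signs. Disease-associated microglia genes were higher at 15 of 20 (median 0.12, 0.09 without 711), complement and interferon genes at 12 of 25 (−0.03, 0.03 without 711) and reactive astrocyte genes at 3 of 14 (−0.17, −0.40 without 711). Apoe, the lipid carrier of astrocytes and reactive microglia, stood at 3203, 1987 and 2099.9 against 1968, 2109 and 1756 CPM, and 711 alone was far from the rest. Serpina3n, a protease inhibitor of reactive astrocytes, stood at 38.8, 11.3 and 28.5 against 44.5, 57.5 and 41.2 CPM, and the groups did not overlap. Of 27 Bcl2 family and caspase genes 17 were lower (−0.02, −0.09 without 711), with the pro-apoptotic Bid at 6.43, 7.50 and 7.72 against 12.8, 9.97 and 10.3 CPM. Of 32 stress and unfolded protein response genes 18 were higher (0.03), against 24 without 711 (0.12), and 4 separated the groups on the high side and 2 on the low side (background 3.85% and 8.76%), with Ddit3, the transcription factor CHOP, higher (28.8, 26.7 and 26.7 against 24.5, 21.7 and 23.4 CPM) and Ddit4, an mTORC1 inhibitor, lower (52.7, 41.7 and 43.2 against 65.6, 65.8 and 58.9 CPM) in all 3 KO libraries. Notch pathway genes were higher at 17 of 29 (0.03, −0.03 without 711) and reelin pathway genes at 8 of 14 (0.02, −0.04 without 711).

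**Figure D4:**
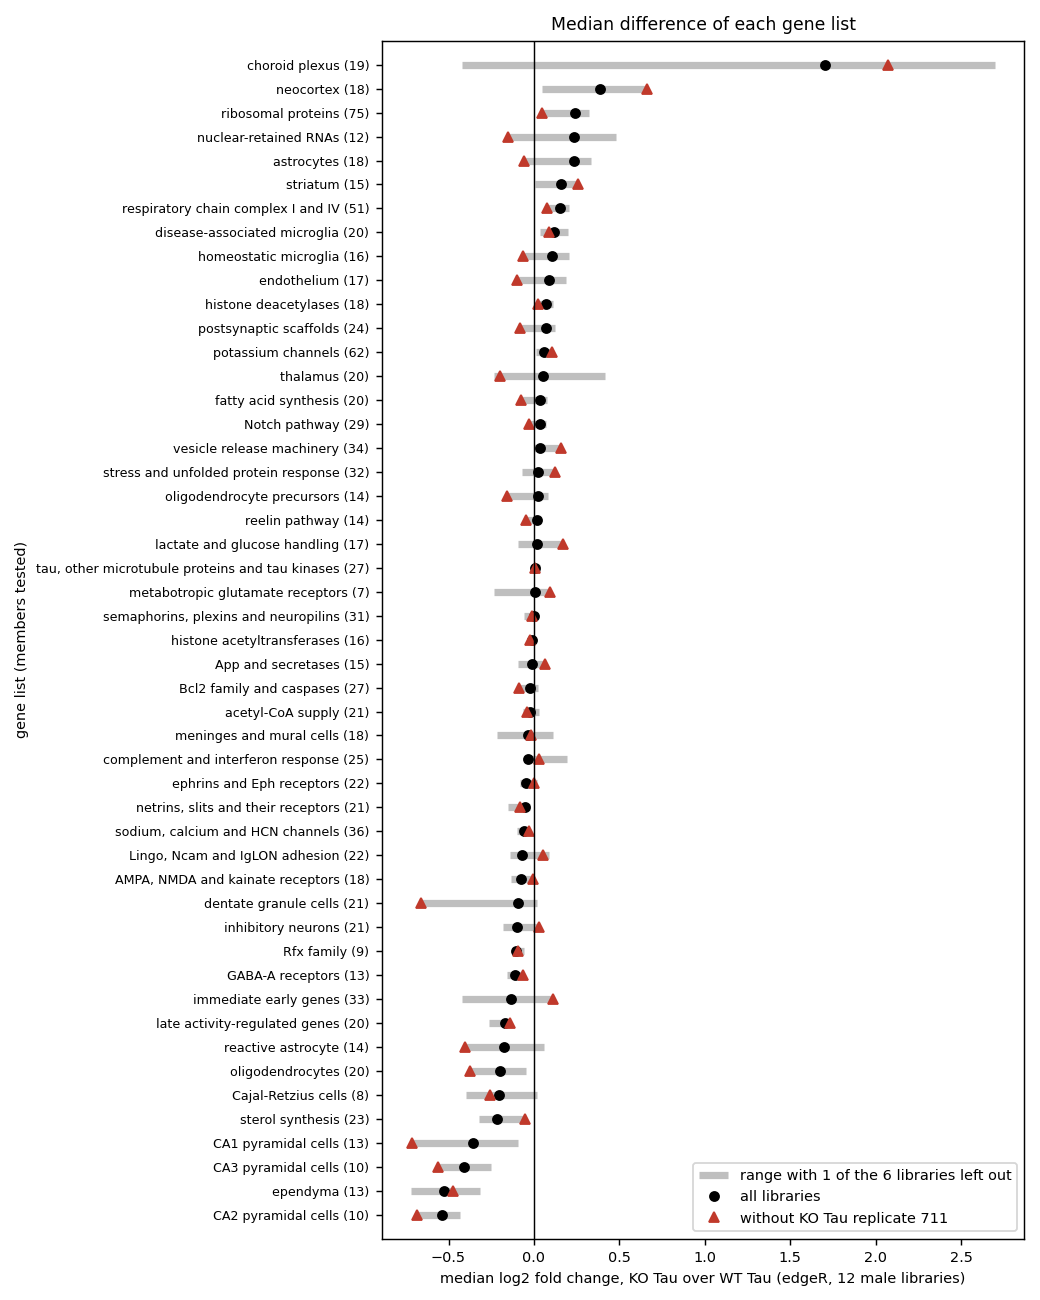
Median log2 fold change of each gene list (horizontal axis), KO Tau minus WT Tau, from all libraries (black) and without 711 (red triangle), with a grey bar for the range when each of the 6 libraries is left out in turn. The late activity-regulated list keeps its sign (−0.26 to −0.14), the dentate list moves from −0.09 to −0.66 without 711, and the choroid plexus bar crosses 0 at −0.42.

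Mice injected with PBS gave the same contrast without tau and in other libraries. The KO PBS libraries were uneven, with median absolute log2 gaps to their own group of 0.201, 0.231 and 0.187 (751, 752 and 753). In 752 the mean log2 level of striatal markers was 5.18, against 3.01 in 751 and 2.92 in 753. Its CA1 markers stood at 4.16, against 6.09 and 5.92. The part of 752 in the PBS and interaction values was not tested. Acss2 again was the 1 gene that edgeR called (0.00662% of 15098), lower by −3.76 on the log2 scale. Whether the genotype difference itself differed between Tau and PBS was tested by the interaction. The edgeR interaction test called 0 of 15098 genes (0.0%), 631 reached p under 0.05 before adjustment, and neither DESeq2 nor limma voom on the 12 male libraries called any (0 each). For Acss2 the interaction was 0.29 (SE 0.258). Zbtb40 (0.52) and Avp (1.75) differed between KO PBS and WT PBS by as much as under Tau, and for Avp the PBS libraries stood at 1.22, 0.786 and 1.42 CPM in KO and 0.548, 0.207 and 0.298 CPM in WT. Dusp5 was closer to WT after PBS, at 14.3, 10.9 and 18.0 in KO PBS against 16.2, 18.96 and 15.9 CPM in WT PBS, with a log2 fold change of −0.19 and an interaction of −0.96 (SE 0.273). Npas4 stood at 10.4, 12.5 and 15.7 against 11.3, 13.3 and 12.1 CPM after PBS, with an interaction of 1.53 (SE 0.591). Actn2, the spine actin crosslinker, had the smallest interaction p of all genes: it was lower under Tau (9.65, 8.44 and 8.66 against 11.5, 12.5 and 14.0 CPM) and higher after PBS (15.5, 15.2 and 14.0 against 11.2, 11.7 and 12.1 CPM). None of these interactions passed the adjusted threshold in edgeR.

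Of 632 genes that rose without 711 and were tested after PBS, 71.7% were higher in KO PBS than in WT PBS, against 52.5% of all tested genes. Of 742 that fell, 42.7% were lower in KO PBS, against 47.5% of all tested genes. In the PBS groups the dentate markers also spread within KO, from 3.92 to 5.85, and the part of composition in these shares was not tested.

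In female Tau mice edgeR called 1 gene (0.00649% of 15419), Acss2, lower by −2.86 on the log2 scale, and the sex by genotype test called 0 (0.0%), 454 genes having p under 0.05 before adjustment. Bdnf and Fosl2, with log2 fold changes of −0.65 and −0.69 in males, had 0.30 and 0.16 in females, the smallest p-values of that test, though neither passed the adjusted threshold. Female and male libraries carry separate number series, and the labels do not say whether they were handled together. Sex therefore cannot be told apart from any other difference between the 2 sets. Female Bdnf stood at 51.3, 52.1 and 56.4 CPM in KO and at 41.8 and 47.8 CPM in WT. Dusp5 was 6.84, 12.6 and 6.22 against 4.63 and 15.6 CPM in females, where the 2 WT libraries spanned the KO values. Npas4 was higher in female KO, at 14.9, 10.1 and 9.83 against 2.84 and 8.32 CPM (1.08, SE 0.598), and Spry4 was lower, with −0.51 (SE 0.151). Of the genes that rose without 711, 44.3% were higher in female KO, against 48.0% of all tested genes, and of those that fell 34.6% were lower, against 52.0% of all tested genes.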

How the data were processed

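Polyadenylated RNA of dorsal hippocampus was sequenced in 17 libraries. The deposited table holds whole-number read counts per gene for each library. According to the submitters' processing notes and the study's methods, the authors aligned reads with STAR 2.5.2 to GRCm38 (mm10), used SAMtools 1.1 and counted exonic reads on the reverse strand with HTSeq 0.9.1; the annotation release is not given in the sources used here. The study used the DESeq2 Wald test.

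From these counts, the 12 male libraries were fitted together in edgeR 4.0.16 (R 4.3.3) after TMM scaling and filterByExpr (minimum count 10, minimum total 15), with quasi-likelihood F-tests and Benjamini-Hochberg adjustment at 0.05. SEs are the log2 fold change divided by the square root of F. The 11 Tau libraries were fitted likewise for sex. CPM values were scaled to library totals, and list levels are mean log2 CPM with prior count 2. Of 24498 genes 4152 had no count. DESeq2 1.42.0, limma 3.58.1 voom, fits of the 2 groups alone, no filter and leaving out each library were alternatives. The scripts were tested on simulated data. The members and lists were chosen with earlier results of these data known. Genes named were Acss2, Npas4, Rfx3 and Mapt; the 12 higher and 12 lower genes with the smallest p among non-overlapping ones (mean of at least 1 CPM, no model names); the 10 higher and 10 lower leading DESeq2 without 711; and up to 3 per list and fit by p. They share the contrast that chose them, so their values are descriptions. Depth was 15853495 to 21254509 counts in the 6 libraries. Some results on single genes are not reported here.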

Additional observations from a re-analysis of the deposited data

How the results depend on the processing

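The count of genes called in KO Tau against WT Tau was 1 in edgeR on 12 male libraries. It was 4 in DESeq2 and 2 in limma voom on the same libraries, and 28 in DESeq2 on the 2 groups alone. With each of the 6 libraries left out it ranged from 0 to 1377 over these tools. It was 1 each time in edgeR on 12 libraries. DESeq2 on 12 libraries called 22, 5, 4, 5, 2 and 7 genes without 711, 712, 713, 771, 772 and 773. On the 2 groups alone edgeR called 733 without 711 and 0 or 1 otherwise, and DESeq2 called 1377, 15, 6, 3, 2 and 4 in the same order. After PBS the count was 1 in edgeR, 2 in DESeq2 on 12 libraries and 4 on the 2 groups. In females it was 0 to 1 with a library left out, and 0 without KO 324 or WT 331. The genotype by treatment count was 0 under each alternative run. Over 110 of the named genes and 3300 values under alternatives, 3108 kept their direction and side of the threshold. Another 188 (79 genes) newly passed it, and 0 reversed. Acss2 accounted for the 4 that no longer passed, in edgeR on the 2 groups without 713, 771, 772 or 773. Most of these genes were chosen by small p in this contrast. The 0 does not cover Fos, Egr1 and Arc, at which 711 lay below every WT Tau library and 712 above. Of 50 list medians 20 kept their sign under each alternative and 30 changed it, 16 of them without 711. Why the tools and 711 change the counts was not tested. No paired analysis was possible because the groups share no replicate numbers. Depth limits genes under 1 CPM.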
